A study of Mus musculus with 6 samples.

Results

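Genes of vesicle traffic were described around *Sytl2*, *Rab38* and *Nsg2*, in thymocytes of 3-week-old *Cd3ε*-/- mice. These genes were set beside their close relatives *Sytl1*, *Sytl3*, *Sytl4*, *Rab27a*, *Rab32*, *Nsg1* and *Unc13d*. Of the 10 genes, 8 had a probe set annotated to that gene alone, among 12393 such genes on the array, and these 8 genes were read by 12 probe sets of 22690. *Unc13d* had no probe set in the annotation used, and the probe set of *Sytl3* also names *Gm29721* and *Gm29719*. To be tested, a gene had to reach the 40th percentile of the array on 3 or more of the 6 arrays. Of these genes 7 did so, and 8693 genes in all, while *Rab32* lay below. *Sytl2*, *Rab38* and *Nsg2* were chosen because they differed between the array labels in earlier work on these arrays, so their differences are given as a description without a test. The 7 relatives were chosen by family.

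The first group, labelled SCLtg LMO1tg and called *SCL-LMO1* here, holds 3 arrays of *Cd3ε*-/- thymocytes that express *SCL* from the *Sil* promoter and *LMO1* from the *Lck* promoter. The second holds 3 arrays of *Cd3ε*-/- thymocytes without transgenes, labelled control. Both groups carry the *Cd3ε* deletion, on a C57BL6 background, so neither can form a pre-TCR complex, and all animals were untreated. Whether each array came from its own mouse is not stated, so the spread behind each p-value is that between samples and may be technical.

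The labels were checked first. *Lmo1*, the gene of one of the transgenes, stood at 5.11, 5.07 and 4.86 under the *SCL-LMO1* label, against 6.64, 6.84 and 6.77 under the control label (log2 RMA expression). It was thus lower in all 3 arrays that carry the transgene by their label, and no source used here says whether its probe set reads the transgene. *Tal1*, the SCL gene itself, was too dim to be tested, at 4.55, 4.63 and 4.71 under the *SCL-LMO1* label and at 4.35, 4.27 and 4.44 under the control label. The directions of *Sytl2*, *Rab38* and *Nsg2* given below are likewise opposite to those in the study's own list of changed genes. Differences are taken as *SCL-LMO1* label minus control label, with the labels as they stand, and exchanged labels would turn every sign. *Cd3e*, the gene deleted in both groups, gave a probe set signal of 8.58 ± 0.06 under the *SCL-LMO1* label and 8.52 ± 0.18 under the control label (SD, n = 3 each), and since both groups carry the deletion it does not check the labels. Of 17 thymocyte genes with a probe set of their own, 16 passed the filter, as did 8693 of 12393 genes in all. Passing alone therefore does not show that these genes were expressed. The arrays also fell into 2 sets by the signal of 18 bacterial hybridization control probe sets: *SCL-LMO1* replicate 1 with control replicates 2 and 3, at means of 10.40 to 10.62, and *SCL-LMO1* replicates 2 and 3 with control replicate 1, at 8.91 to 9.49. They are called the high and the low hybridization set. Control replicate 2 also stood apart in *Xist*, the RNA that coats the inactive X. The brightest *Xist* probe set gave 6.15 on this array and 10.08 to 11.16 on the others. Y-linked *Eif2s3y* read 5.43, 6.23 and 2.74 under the *SCL-LMO1* label, and 3.15, 5.74 and 2.85 under the control label. *SCL-LMO1* replicates 1 and 2 thus joined the higher *Eif2s3y* values to *Xist* values of 10.08 and 10.37. Whether these arrays hold RNA of more than 1 mouse was not tested.

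Cells move proteins between compartments in vesicles, and Rab GTPases decide which vesicle goes where by recruiting effector proteins in their GTP-bound state. Rab27a marks secretory lysosomes, among them the lytic granules of cytotoxic lymphocytes. Synaptotagmin-like proteins, encoded by the *Sytl* genes, bind Rab27 through an N-terminal Slp homology domain and bind membrane lipids through tandem C2 domains, and thereby tether vesicles to the plasma membrane, while Munc13-4, the product of *Unc13d*, primes them for fusion. Rab32 and Rab38 are a related pair known from melanocytes, where they carry pigment enzymes such as tyrosinase to maturing melanosomes, and *Rab38* is mutated in the chocolate coat colour mouse. Nsg1 and Nsg2 are small endosomal membrane proteins known from neurons, where they take part in the recycling of receptors.

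*Sytl2*, the tether of Rab27 vesicles, stood at 6.49, 6.27 and 6.56 under the *SCL-LMO1* label, against 8.45, 8.03 and 8.12 under the control label. The groups lay far apart, and the highest array labelled *SCL-LMO1* stayed below the lowest labelled control. The means were 6.44 ± 0.15 and 8.20 ± 0.22 (SD, n = 3 each), a log2 difference of −1.76 (SE 0.16), or 3.39-fold lower under the *SCL-LMO1* label. It was the third lowest of 8693 differences, and it also held position 3 among lower genes in a rank product, the statistic named in the methods, here taken over 9 pairwise array differences without permutations. Within the low hybridization set the difference was −2.04 and within the high set −1.58. *Sytl2* was read by 1 probe set, so no second reading was available.

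*Sytl1* and *Sytl4*, the other synaptotagmin-like genes tested, did not pass. *Sytl1*, whose product also binds Rab27, stood at 7.74, 7.88 and 7.87 under the *SCL-LMO1* label and at 7.96, 7.90 and 7.51 under the control label. The groups overlapped, and the difference of 0.04 (SE 0.16, limma adjusted p = 0.937) had a 95% interval from −0.32 to 0.40. *Sytl4*, which encodes granuphilin, known for docking insulin granules in pancreatic beta cells, stood at 6.15, 6.56 and 6.41 under the *SCL-LMO1* label and at 6.33, 5.83 and 6.59 under the control label. Its difference was 0.12 (SE 0.21, limma adjusted p = 0.833), with an interval from −0.34 to 0.59, and its lowest array was control replicate 2, the array with the low *Xist* value. *Sytl4* lies on the X chromosome, and leaving this array out gave a difference of −0.09. Whether the *Xist* and *Sytl4* values of this array are linked was not tested. The other probe set of *Sytl4* lay below the filter, at means of 3.67 under the *SCL-LMO1* label and 3.76 under the control label. The probe set that *Sytl3* shares with *Gm29721* and *Gm29719* stood at 7.15, 7.64 and 7.13 under the *SCL-LMO1* label and at 7.33, 7.50 and 7.09 under the control label, and cannot be assigned to 1 gene. Its means of 7.31 and 7.31 were equal at this precision.

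*Rab27a*, the GTPase that these tethers bind, was read near the filter. Its brightest probe set stood at 5.37, 5.23 and 5.15 under the *SCL-LMO1* label and at 4.64, 5.39 and 5.38 under the control label. Control replicate 1 was the lowest array, and the groups overlapped. The difference of 0.11 (SE 0.21, limma adjusted p = 0.848, interval −0.36 to 0.58) turned to −0.14 without control replicate 1 and to −0.08 as the mean of the probe sets. The other probe sets of *Rab27a* lay below the filter on all 6 arrays, at means of 4.03 and 2.92 under the *SCL-LMO1* label and 4.25 and 3.03 under the control label. *Rab27b*, its closest relative, was below the filter too.

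**Figure D1:**
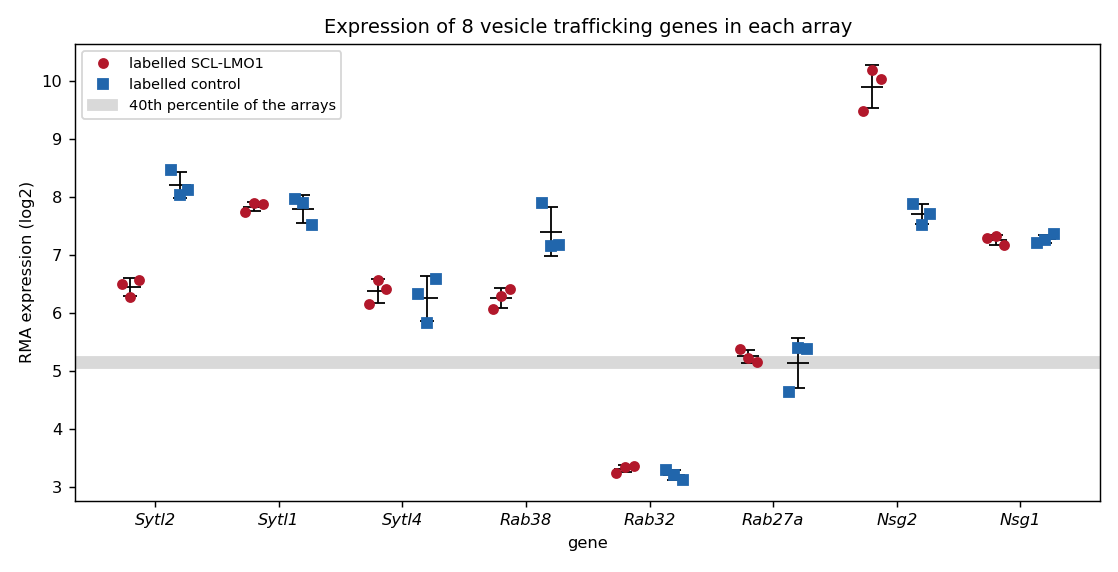
RMA expression (log2, y axis) of the 8 genes with a probe set of their own (x axis), each at its brightest probe set. Points are single arrays, red circles labelled *SCL-LMO1* and blue squares labelled control. Mean and SD of 3 arrays are drawn in black, and the grey band spans the 40th percentiles of the arrays. *Sytl2*, *Rab38* and *Nsg2* stand apart by label, as for *Nsg2* at means of 9.90 and 7.70, while *Rab32* lies below the band. Levels of different probe sets cannot be compared with each other.

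*Rab38*, the GTPase of lysosome-related organelles, stood at 6.07, 6.28 and 6.41 under the *SCL-LMO1* label, against 7.89, 7.14 and 7.17 under the control label. Control replicate 1 was the highest array, and all 3 arrays labelled *SCL-LMO1* lay below those labelled control. The means were 6.25 ± 0.17 and 7.40 ± 0.43 (SD, n = 3 each), a log2 difference of −1.14 (SE 0.21), or 2.21-fold lower under the *SCL-LMO1* label. It held position 10 among lower genes both by difference and by rank product. The difference was −1.54 in the low hybridization set and −1.08 in the high set, and −0.90 without control replicate 1. Its spread within groups, a pooled SD of 0.32, was wider than that of 84.8% of the genes tested, while for *Sytl2* it was 0.19 and near the median of 0.20.

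*Rab32*, the paralog of *Rab38*, lay below the filter on all 6 arrays and was not tested. Its values were 3.24, 3.34 and 3.36 under the *SCL-LMO1* label and 3.28, 3.21 and 3.12 under the control label. On no array did it rise above percentile 9.51 of the probe sets, so a change of *Rab32* was not detectable at this signal.

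*Nsg2*, the neuronal endosomal gene, was the member that was higher. It stood at 9.47, 10.19 and 10.03 under the *SCL-LMO1* label, against 7.87, 7.52 and 7.71 under the control label. The lowest array labelled *SCL-LMO1* lay well above the highest labelled control. The means were 9.90 ± 0.38 and 7.70 ± 0.18 (SD, n = 3 each), a log2 difference of 2.20 (SE 0.20), or 4.59-fold higher under the *SCL-LMO1* label. It held position 2 among higher genes by difference and by rank product, and the difference was 1.86 within the high hybridization set and 2.24 within the low one.

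*Nsg1*, the paralog of *Nsg2*, varied little. Its probe set above the filter stood at 7.29, 7.32 and 7.16 under the *SCL-LMO1* label and at 7.21, 7.24 and 7.35 under the control label. The groups overlapped throughout, and the difference of −0.01 (SE 0.13, limma adjusted p = 0.97) had an interval from −0.32 to 0.29. Its pooled SD of 0.08 stood at percentile 4.83 of the genes tested. The other probe set of *Nsg1* lay below the filter on all arrays, at means of 3.91 under the *SCL-LMO1* label and 4.09 under the control label.

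**Figure D2:**
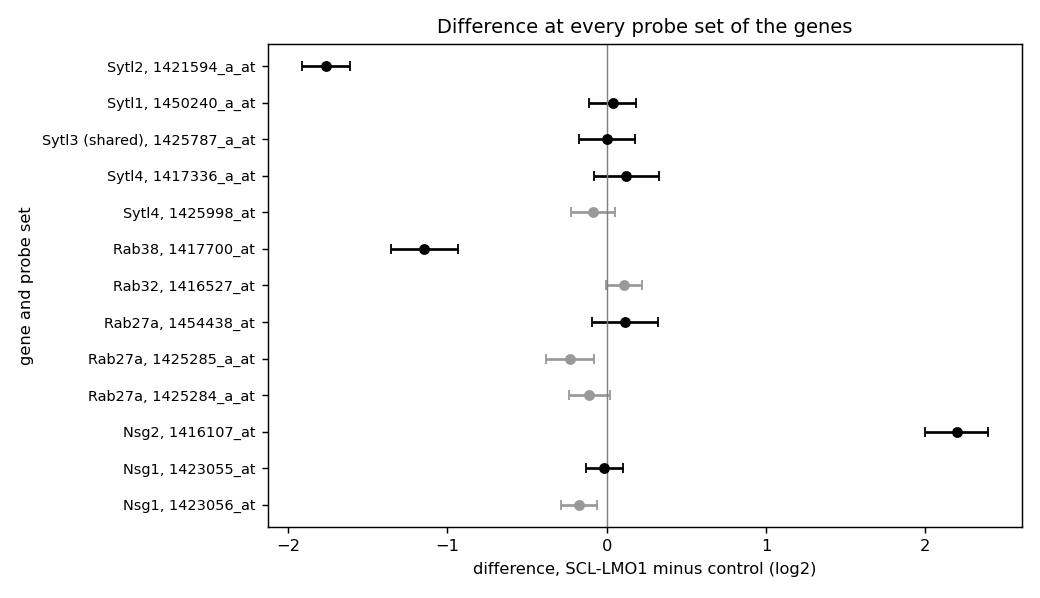
Log2 difference, arrays labelled *SCL-LMO1* minus arrays labelled control (x axis), at every probe set of these genes (y axis), with bars for the SE from a limma fit over all probe sets (n = 3 each). Black marks probe sets that passed the filter and grey those below it. Apart from *Sytl2* at −1.76, *Rab38* at −1.14 and *Nsg2* at 2.20, the differences lie between −0.23 and 0.12.

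Over all genes, 14 of 8693 passed limma at a Benjamini-Hochberg adjusted p under 0.05, a share of 0.161%, with 7 higher and 7 lower, or 0.0805% in each direction. *Sytl2* and *Nsg2* are among the 14 and *Rab38* is not, which is given as a description, since this contrast chose them. *Rab38* joined the called genes under 3 of 15 alternatives, which were the hybridization set as a term, weighted arrays and quantile normalization. Of the 4 relatives that were tested, 0 passed, at an adjusted or at an unadjusted p under 0.05. Without overlap between the labels were 0 of these 4 relatives and 13.7% of all genes, 7.32% higher and 6.37% lower. In all, 42 genes differed by more than 1 on the log2 scale in either direction, of which 11 were lower, and *Sytl2* and *Rab38* are among these.

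**Figure D3:**
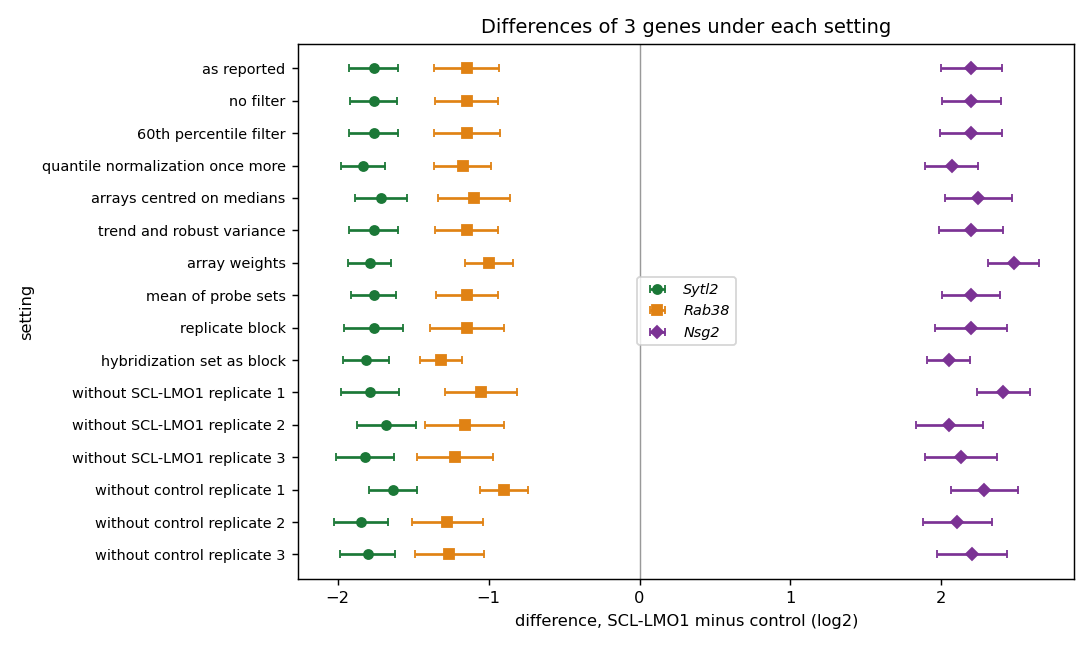
Log2 difference, arrays labelled *SCL-LMO1* minus arrays labelled control (x axis), of *Sytl2*, *Rab38* and *Nsg2* in the reported fit and under each of 15 other settings (y axis), with bars for the SE. *Sytl2* stays between −1.85 and −1.63, *Rab38* between −1.31 and −0.90 and *Nsg2* between 2.05 and 2.48.

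Position on the chromosome was not used to choose the genes. *Rab38* and *Sytl2* both lie on chromosome 7, with 9 protein-coding genes between them in the RefSeq annotation of GRCm38.p6. Of those 9, 3 were measured, and they differed by 0.19 (*Tmem135*), 0.32 (*Hikeshi*) and 0.61 (*Eed*, a subunit of the polycomb complex), at limma adjusted p values of 0.725, 0.696 and 0.576. On the other side of *Rab38*, *Ctsc*, which encodes the protease that activates granzymes, differed by 0.36 (SE 0.19, limma adjusted p = 0.571), and *Tyr*, the tyrosinase gene, by −0.12 (SE 0.17, limma adjusted p = 0.804), both with overlap. Beyond *Sytl2* the nearest measured genes were *Crebzf*, *Tmem126a* and *Ccdc90b*, with differences of 0.53, 0.14 and 0.32. From 20 protein-coding genes before *Rab38* to 20 after *Sytl2*, 13 of the 49 neighbours were measured, and their median difference was 0.19. Of these 13, 0 passed and 0 were without overlap, against 0.161% and 13.7% of all genes. At such shares these counts say little about the region. Chromosome 7 as a whole had 691 measured genes with a median of −0.06, of which 2 passed, *Sytl2* and *Lmo1*, both lower.

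*Nsg2* lies on chromosome 11. Of its 20 nearest protein-coding genes, 9 were measured and 0 passed, against 0.161% of all genes, with a median of −0.01. The nearest were *Cpeb4*, which encodes a regulator of mRNA polyadenylation, at 0.62 (SE 0.18, limma adjusted p = 0.335) without overlap, and *Snrnp25*, a component of the minor spliceosome, at 0.35 (SE 0.19, limma adjusted p = 0.579). Next came *Stc2* at −0.01 and *Asb3* at 0.05 on the side of *Cpeb4*, and *Mpg* at 0.06 and *Nprl3* at −0.07 on the side of *Snrnp25*.

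**Figure D4:**
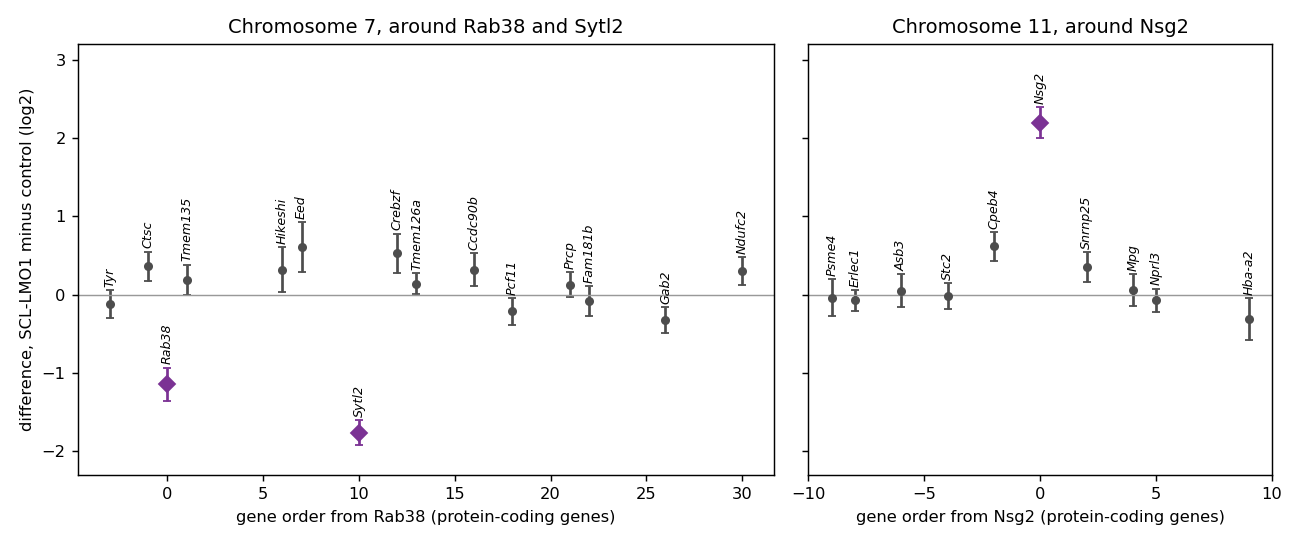
Log2 difference, arrays labelled *SCL-LMO1* minus arrays labelled control (y axis), of the measured genes around *Rab38* and *Sytl2* (left) and around *Nsg2* (right), placed by their order among protein-coding genes (x axis), with bars for the SE (n = 3 each). Diamonds mark *Rab38*, *Sytl2* and *Nsg2*; the 13 and 9 measured neighbours lie between −0.32 and 0.62.

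The promoter of *Nsg2* is shown because SCL and E proteins bind E-boxes, the sequence CANNTG, and because *Nsg2* had the largest difference among these genes. RefSeq promoter windows around transcript starts on GRCm38.p6 were at hand for 6 of the 10 genes. There was none for *Sytl2*, *Rab38*, *Nsg1* or *Unc13d*, so the genes that were lower could not be set beside *Nsg2* here. The 250 bases before the upstream *Nsg2* start in that table are given 5′ to 3′, with E-boxes in capitals.
Nsg2, chr11:32000169-32000418, plus strand: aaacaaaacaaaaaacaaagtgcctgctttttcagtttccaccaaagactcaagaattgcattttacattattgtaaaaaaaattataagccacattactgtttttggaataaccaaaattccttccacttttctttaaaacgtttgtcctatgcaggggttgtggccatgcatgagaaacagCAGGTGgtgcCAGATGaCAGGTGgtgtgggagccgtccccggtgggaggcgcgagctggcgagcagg
It holds 3 E-boxes close together: CAGGTG stands at positions −67 and −50 from the start, and between these at −57 lies CAGATG. The window has 1 more, CAGCTG, at position 4 beyond the printed bases. All motifs were searched on both strands, and the named E-box variants are counted among the E-boxes too. At least 4 E-boxes stood in 6.49% of all 32851 windows, and CAGATG together with CAGGTG in 3.58%. Any E-box was found in 72.3% of the windows, and GATAA, the GATA factor sequence, in 25.4%, while neither *Nsg2* window held GATAA. The relative *Sytl1* has 2 E-boxes in its window, both CAGCTG, which 16.3% of windows hold. *Rab27a* has 1 window with 6 E-boxes, more than either window of *Nsg2*. Another *Rab27a* window has CAGGTG at −50, the same word and position as in the *Nsg2* window shown. *Sytl3* has 2 E-boxes, 1 of them CAGGTG read on the opposite strand, and 1 GATAA match. *Rab32* has 1 E-box and 1 GATAA match, and *Sytl4* has 0 E-boxes. A match describes these letters alone.

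The wider machinery of vesicle traffic was read from lists of its genes, and in none of the 7 lists did a gene other than *Sytl2* or *Nsg2* pass limma at an adjusted p under 0.05. With the hybridization set as a term, or after quantile normalization, *Rab38* passed too, and no other gene of the 7 lists did. Beyond these settings and arrays centred on their medians, the lists were not read under the alternatives, weighted arrays among them. Of 23 effectors and regulators of Rab27, 12 were measured and 1 fell, *Sytl2*, which was chosen for it, while 11 did not pass. *Mlph*, which encodes melanophilin, a link between Rab27 and myosin, differed by −0.26 (SE 0.18, limma adjusted p = 0.639) and *Myo7a*, a myosin gene, by −0.24. *Madd*, an exchange factor for Rab3 and Rab27, had no overlap between the labels, at 6.50, 6.44 and 6.52 under the *SCL-LMO1* label and 6.62, 6.81 and 6.68 under the control label, but its difference of −0.22 (SE 0.13) did not pass (limma adjusted p = 0.617). *Rabggtb*, a subunit of the enzyme that attaches lipid anchors to Rab proteins, differed by 0.43 (SE 0.26, limma adjusted p = 0.614). The median of the other 11 genes was 0.04, against −0.01 over all genes.

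Of 38 genes for the making of lysosome-related organelles, which include *Rab38*, the BLOC and AP-3 subunits and the pigment genes, 31 were measured and 0 passed. The median was −0.04, and −0.03 without *Rab38*. The largest difference after *Rab38* was that of *Rab7b*, a GTPase of late endosomes, at −0.36 (SE 0.15, limma adjusted p = 0.496), with no overlap between the labels, followed by *Rab9* at 0.35 (SE 0.23, limma adjusted p = 0.635). *Slc45a2*, a pigment transporter gene, differed by −0.28.

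Among 56 Rab GTPases, 40 were measured and 0 passed, 20 with a positive and 20 with a negative difference. With the hybridization set as a term, or after quantile normalization, 1 passed, *Rab38*. *Rab38* was the one farthest from 0. *Rab1a*, which acts between the endoplasmic reticulum and the Golgi, came next at 0.59 (SE 0.22, limma adjusted p = 0.441), with values of 9.67, 9.96 and 10.14 under the *SCL-LMO1* label and 9.66, 9.46 and 8.86 under the control label, which did not overlap but nearly touched. *Rab9*, given above at 0.35, followed. The median of the 40 was 0.02, and 0.05 without *Rab38*. With *Rab38* it turned to −0.08 after quantile normalization.

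Of 31 genes of the *Nsg* family and of endosomal recycling, 23 were measured and 1 rose, *Nsg2*, which was chosen for it. *Stx12*, a syntaxin of recycling endosomes that binds the Nsg1 protein in neurons, differed by 0.20 (SE 0.17, limma adjusted p = 0.679). *Ehd1*, a recycling ATPase, differed by 0.64 (SE 0.30, limma adjusted p = 0.539) and *Rabep1*, a Rab5 effector, by 0.44 (SE 0.20, limma adjusted p = 0.534). The median of the list was 0.20, and 0.16 without *Nsg2*. With *Nsg2* it was 0.07 after quantile normalization.

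Synaptotagmins and other C2 domain relatives, which share the membrane-binding domain of the *Sytl* products, were mostly dim: 12 of 25 with a probe set were measured and 0 passed. Their differences ran from −0.31, for *Syt17* (limma adjusted p = 0.647), to 0.0014, and 11 of 12 lay below 0. The median was −0.17, against −0.01 over all genes. It was −0.19 after quantile normalization, −0.12 with arrays centred on their medians and −0.10 with the hybridization set as a term. The lean was not particular to this list, since all 5 measured neuron genes and all 8 measured melanocyte genes lay below 0 too. All 12 overlapped between the labels, where 13.7% of all genes did not. Of the fusion machinery, 32 SNARE and SM genes were measured and 0 passed, with a median of 0.09. *Stx7*, a syntaxin of late endosomes, differed by 0.63 (SE 0.24, limma adjusted p = 0.461) without overlap. *Ykt6*, a SNARE of the Golgi and endosomes, differed by 0.44 (SE 0.22, limma adjusted p = 0.569) with overlap, and *Vti1b*, a partner of *Stx7*, by 0.43 (SE 0.20, limma adjusted p = 0.530) without. The exocyst tethers vesicles at the plasma membrane, and its list also holds the GTPase genes *Rala* and *Ralb*. This list had 6 measured genes with differences from −0.34 (*Ralb*) to 0.56 (*Exoc8*), of which 0 passed.

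**Figure D5:**
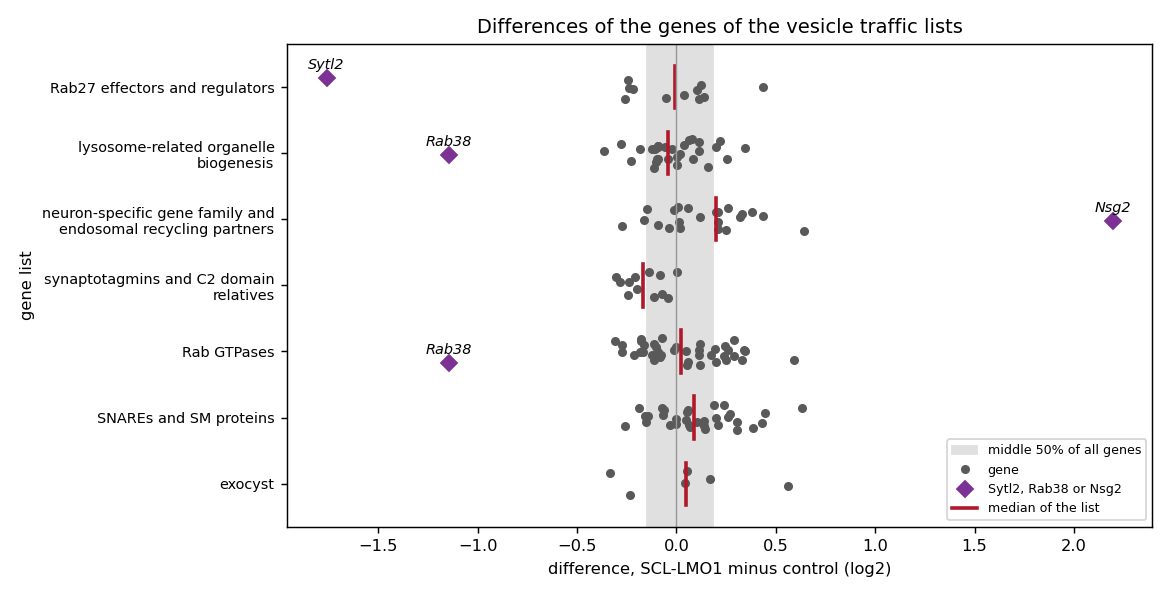
Log2 difference, arrays labelled *SCL-LMO1* minus arrays labelled control (x axis), of every measured gene of each vesicle traffic list (y axis). Grey points are genes, diamonds *Sytl2*, *Rab38* and *Nsg2*, red bars the list medians, and the grey band spans the interquartile range of all genes. The points other than the diamonds lie between −0.36 and 0.64.

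The genes most like each of the 3 in pattern were named by Pearson's r over the 6 arrays among 8692 other genes, as a description, since the labels part the arrays in each of them. *Sytl2* was followed most closely by *Ctla2a* (r = 0.995), *Gstp1* (r = 0.995) and *F2r* (r = 0.991), and ran opposite to *Slc5a9* (r = −0.993), *Tacc3* (r = −0.992) and *Nrp1* (r = −0.989). Likeness in pattern was not likeness in size, since *Gstp1* differed by −0.16 and *F2r* by −2.45. *Rab38* was nearest to *Pdgfrb* (r = 0.992), *Glipr1* (r = 0.989) and *Smox* (r = 0.987), and opposite to *Degs2* (r = −0.998), *Bcl11a* (r = −0.975) and *Lyrm2* (r = −0.967). *Nsg2* ran with *Prim1* (r = 0.997), *Rrm1* (r = 0.989) and *Tsen15* (r = 0.988), of which *Prim1*, a primase subunit, and *Rrm1*, of ribonucleotide reductase, serve DNA replication, with differences of 0.88 (SE 0.14) and 0.80 (SE 0.13). Opposite to *Nsg2* were *Ifna9* (r = −0.992), *Grb2* (r = −0.988) and *Ncoa1* (r = −0.986).

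Genes of other cell types were read beside these results. In bulk RNA, fewer cells of a type and less RNA per cell cannot be told apart. Neutrophil genes had array means of 6.37 to 6.97 under the *SCL-LMO1* label and 5.59 to 6.17 under the control label, and a median of 0.45 over 15 measured genes. Of these 15, 7 were higher without overlap, against 7.32% of all genes, and 0 passed, *S100a8* being nearest at 2.09 (SE 0.34, limma adjusted p = 0.0598), while *Ctsg* and *Cd177* lay below the filter. The differences of 11 lay above 0 and those of 4 below, namely *Cxcr2*, *Elane*, *Csf3r* and *Mmp8*, at −0.14 to −0.02. With the hybridization set as a term 2 of the 15 passed, and after quantile normalization 1 did. Erythroid genes had array means of 6.95 to 7.60 under the *SCL-LMO1* label and 6.68 to 6.87 under the control label, with a median of 0.43 over 10 measured genes. B cell genes had 6.14 to 6.31 under the *SCL-LMO1* label and 6.35 to 6.61 under the control label, with a median of −0.14 over 9. In neither list did a gene pass. The part of these 3 cell types in the differences of *Sytl2*, *Rab38* and *Nsg2* was not tested. Of 16 genes typical of neurons, the cells for which *Nsg2* is named, 11 lay below the filter, including *Map2*, *Snap25*, *Syt1* and *Rbfox3*, and the other 5 had differences between −0.35 and −0.13, against 2.20 for *Nsg2*. Of 9 melanocyte genes with a probe set, 8 passed the filter and 0 passed the test, at array means of 5.68 to 5.93 under the *SCL-LMO1* label and 5.82 to 6.12 under the control label, with *Mitf* below the filter. Genes of NK and cytotoxic lymphocytes, the cells in which Rab27a and Munc13-4 are best known, had a median of 0.01 over 11 measured genes, with 3 higher and 1 lower without overlap, against 7.32% and 6.37% of all genes, and 0 passing. The 3 higher were *Gzma* at 0.58, *Klrd1* at 0.50 and *Ctsw* at 0.14, and the 1 lower was *Klrk1* at −0.11. *Prf1*, which encodes perforin, stood at 6.05, 5.82 and 5.50 under the *SCL-LMO1* label and 5.76, 5.48 and 5.79 under the control label, and overlapped. Among 16 measured thymocyte genes, with a median of 0.05, 1 rose, *Ptcra*, the pre-TCR alpha chain gene, by 1.28 (SE 0.16, limma adjusted p = 0.0127), a direction that is again opposite to the study's own list. With the hybridization set as a term 2 passed. *Rag1*, *Rag2* and *Il7r* differed by 0.97, 0.82 and 1.20, so that 4 of 16 were higher without overlap, against 7.32% of all genes.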

How the data were processed

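Affymetrix mouse arrays gave 1 value for each probe set, which the authors computed as log2 expression by RMA (affy package; versions not given in the sources used here) and deposited. RMA normalizes arrays jointly, so a value is relative to the others, and the number of arrays limits precision. The study also dropped probe sets absent by MAS5 and ran Rank Products; absent calls were not used here. Of 22690 probe sets, 64 Affymetrix controls were left out. Of the other 22626, 20380 named 1 gene, 691 several and 1555 none.

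A filter blind to the labels asked for the 40th percentile on 3 arrays or more, and the brightest probe set stood for its gene. limma 3.58.1 (R 4.3.3) compared the labels over 8693 genes without covariates. Calls used a Benjamini-Hochberg adjusted p under 0.05, and the code was tested on simulated data. Genes, lists and alternatives were chosen with earlier results of these data known. Named were the 10 genes, up to 3 genes per vesicle traffic list by size of difference or any that passed, the nearest measured neighbours, and the 3 most and 3 least alike in pattern. *Madd*, *Myo7a*, *Slc45a2*, *Stx12* and genes of the cell type lists were named after their values were seen. Protein sequences were not used here.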

Additional observations from a re-analysis of the deposited data

How the results depend on the processing

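*Sytl2*, *Rab38* and *Nsg2* kept their direction under each of 15 alternatives. *Rab38*, not among the called genes as reported, was among them under 3, with a difference of −1.31 with hybridization sets as a term, −0.997 on weighted arrays and −1.17 after quantile normalization. The number of genes passing limma over the whole table, 14 as reported, was 31 after a further quantile normalization (10 higher and 21 lower, against 7 and 7), 547 when arrays were weighted (420 higher and 127 lower), 28 with hybridization sets as a term, 33 at an adjusted p under 0.1 and 821 at an unadjusted p under 0.05. Residuals of arrays with equal numbers correlated at −0.64, 0.01 and −0.38. Each such pair joins an array of the high hybridization set with an array of the low set. These values therefore cannot tell whether the numbers pair the arrays. A replicate block gave 9 genes. Dropping single arrays gave 6 to 25 genes, the lowest when control replicate 2 was dropped and the highest when control replicate 1 was, and 8 when either of *SCL-LMO1* replicates 2 and 3 was. Small differences of relatives changed sign. For *Nsg1* they were 0.033 on centred arrays, 0.027 on weighted arrays and 0.0083 with hybridization sets as a term, and −0.047 to 0.033 with single arrays dropped. For *Rab27a* they were −0.026 on weighted arrays, −0.075 as a mean of probe sets and −0.14 to 0.24 with single arrays dropped. For *Sytl1* they were −0.074 after quantile normalization, −0.028 with hybridization sets as a term and −0.10 to 0.12 with single arrays dropped. *Sytl4* ran from −0.088 to 0.29 with single arrays dropped, and on weighted arrays it stood at 0.42 (SE 0.18, limma adjusted p = 0.139). No relative passed under any alternative, and the cause of the sign changes was not tested. *Rab27a* had no value under the filter at the 60th percentile.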
